A study of Mus musculus with 6 samples.

Results

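Immediate early genes are the genes that a cell transcribes first when a growth factor, a cytokine or a physical stress reaches it, before any new protein is made. Serum response factor with its partners on CArG boxes, and CREB on cAMP response elements, are present beforehand and are switched on by MAP kinases, so that the mRNAs rise within minutes and are then removed quickly through AU-rich elements in their 3′ UTRs. In freshly sorted blood stem cells these mRNAs are known to respond both to activation in the animal and to dissociation and sorting of the cells. The 10 genes described here were listed by role, with earlier results of these data known, and matched by symbol, and the data, which list 26216 gene names, hold all 10 of them. By role they are the AP-1 subunits *Fos*, *Fosb*, *Jun*, *Junb* and *Jund*, the related factor *Atf3*, the zinc finger factor *Egr1*, the regulator *Ier2*, and the feedback genes *Zfp36* and *Dusp1*.

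RNA was sequenced from LT/ST-HSCs, the CD150+ CD48- part of the Lin- sca1+ c-kit+ bone marrow cells that did not bind Annexin-V. They came from mixed chimeras, in which LSKs of *Ltbr*-/- donors (CD45.2) and of Ly5.1 donors (CD45.1, with intact *Ltbr*) had been given together, 6 weeks earlier, to Ly5.1/Ly5.2 recipients after lethal irradiation. Both groups thus shared the recipients, which have *Ltbr*, and the irradiation, while the donors differed both in the germline deletion of *Ltbr* and in the congenic CD45 locus. Cells of 6 chimeras were pooled to 3 replicates of each genotype. Donor age was 13 weeks, 10 weeks and 10 to 13 weeks in the *Ltbr*-/- replicates and 7 to 13 weeks in each Ly5.1 replicate, so that age and genotype cannot be fully told apart.

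Values are given as signal, the power of 2 of the regularized log that the authors deposited, which is scaled between samples and shrunken towards the mean in weakly expressed genes. The files hold no read counts, so that the depth behind each value is unknown. Differences are *Ltbr*-/- minus Ly5.1 on the log2 scale, with adjusted p-values from limma (Benjamini-Hochberg over 13108 tested genes). A difference was called where the adjusted p was under 0.05 and the fold at least 1.5. *Ltbr* itself had signals of 24.2, 26.4 and 23.1 in the *Ltbr*-/- samples and of 564, 549 and 522 in the Ly5.1 samples (log2 difference −4.47, standard error 0.08, adjusted p = 2.15e-32 from limma). All 12 markers listed for LT/ST-HSCs were among the tested genes. *Kit* was strongly expressed, with group means of 5393 in *Ltbr*-/- and 5981 in Ly5.1 (percentile 97.9 of the tested genes by mean). *Procr* (584 and 605, percentile 64.2) and *Mecom* (828 and 918, percentile 74.3) lay lower. The weakest, *Hoxb5*, had group means of 33.2 in *Ltbr*-/- and 31.8 in Ly5.1. That is close to *Cd48*, which the sort excludes, at 25.2 and 25.1. Some genes listed as markers of other lineages lay above *Kit*, among them *Mpo* (9954 in *Ltbr*-/- and 13019 in Ly5.1) and *Itga2b* (11640 and 9380). In bulk RNA of this kind, fewer cells of a type and less RNA per cell cannot be told apart.

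The elements named above were looked for in the sequences of the 10 genes. RefSeq promoters (GRCm38.p6, 250 bases before to 50 after the start site, 300 in all) were at hand for 8 of them, but not for *Egr1* and *Ier2*. The sites below are shown because the 3 genes that carry them stand for the main routes of induction and because *Fos* and *Zfp36* are among the genes that differed between the genotypes. The capitals mark a CArG box in *Zfp36*, the complete cAMP response element TGACGTCA in *Dusp1* and its core TGACG in *Fos*.
Zfp36, chr7:28379267-28379296, minus strand, 58 bases before the RefSeq start site: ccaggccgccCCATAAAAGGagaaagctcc
Dusp1, chr17:26508598-26508625, minus strand, 143 bases before the RefSeq start site: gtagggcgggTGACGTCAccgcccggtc
Fos, chr12:85473814-85473838, plus strand, 66 bases before the RefSeq start site: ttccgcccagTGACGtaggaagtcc

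For *Zfp36* the annotations differ: the longest protein-coding GENCODE transcript starts 1025 bases upstream of the RefSeq start, and the box lies in an exon of that transcript. For *Jund* the GENCODE start lies 1210 bases downstream of the RefSeq start, and for the other 6 genes the starts lie within 47 bases of each other.

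Searched on both strands, a CArG box was found in 1 of the 8 promoters, against 1.63% of all 32851 RefSeq promoters of this length, and the complete cAMP response element in 1, against 1.79%. The core TGACG, which lies within the complete element, was found in 5 (*Fos*, *Fosb*, *Junb*, *Dusp1* and *Atf3*), against 20.8% of all promoters. A κB site, to which NF-κB factors bind, matched in *Fos* and *Fosb*, against 8.46%. The AP-1 site (TGACTCA or TGAGTCA; 5.20% of all promoters) and the EGR site GCGTGGGCG (0.612%) matched in 0 of the 8. None of these elements matched in the promoters of *Jun*, which had the largest difference between the genotypes, and *Jund*. These are matches of letters in a short window, and elements farther upstream were not looked for. A link between the elements and the differences was not tested.

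The AU-rich nonamer TTATTTATT, the kind of element that the *Zfp36* protein (tristetraprolin) binds, was present in the 3′ UTRs of 3 of the 10 genes, against 7.58% of 20940 mouse 3′ UTRs (GENCODE M21, GRCm38, longest protein-coding transcript). It is shown in capitals for these 3, which are *Fos*, *Zfp36* itself and *Dusp1*, and in each gene the site lies in an exon, within the 3′ UTR.
Fos, chr12:85477104-85477130, plus strand: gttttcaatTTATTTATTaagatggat
Zfp36, chr7:28376952-28376978, minus strand: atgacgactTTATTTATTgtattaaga
Dusp1, chr17:26506160-26506186, minus strand: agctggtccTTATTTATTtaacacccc
*Dusp1* held 2 such nonamers and the others 1 each. The shorter pentamer ATTTA, which is part of the nonamer, occurred in 9 of the 10 genes, with *Ier2* as the exception, against 64.8% of all 3′ UTRs. The transcripts are compact: *Jun*, *Junb*, *Jund* and *Ier2* have a single exon, against 2.28% of the tested genes with a 3′ UTR, and the others have 2 to 4, against a median of 9.

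In *Ltbr*-/- LT/ST-HSCs the mRNAs of *Fos*, *Jun*, *Egr1* and *Zfp36* were lower than in Ly5.1 cells, by 15.7% to 21.4%. These 4 of 10 genes had an adjusted p under 0.05 in limma, all of them lower. By this rule 4.18% of all tested genes were lower and 10.6% higher, 14.8% in all. None reached a fold of 1.5, so that 0 of the 10 were called with both thresholds, against 2.78% of all tested genes, of which 0.061% were lower and 2.72% higher. By limma's unadjusted p, 8 of the 10 were under 0.05, 7 lower and 1 higher, against 27.1% of all tested genes, 11.4% lower and 15.7% higher. The median log2 difference was −0.19 over the 10 genes and −0.01 over all tested genes, and 9 of the 10 lay below 0, against 53.6% of all tested genes. The groups did not overlap in 6 of the 10, 5 of them lower (13.5% of all tested genes) and 1 higher (17.0%). Since 9 of these genes are strongly expressed, the shares among the 3277 tested genes with the highest means were also taken, a choice made after the values were seen. Of those genes 8.73% were lower and 22.6% higher with an adjusted p under 0.05.

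**Figure D1:**
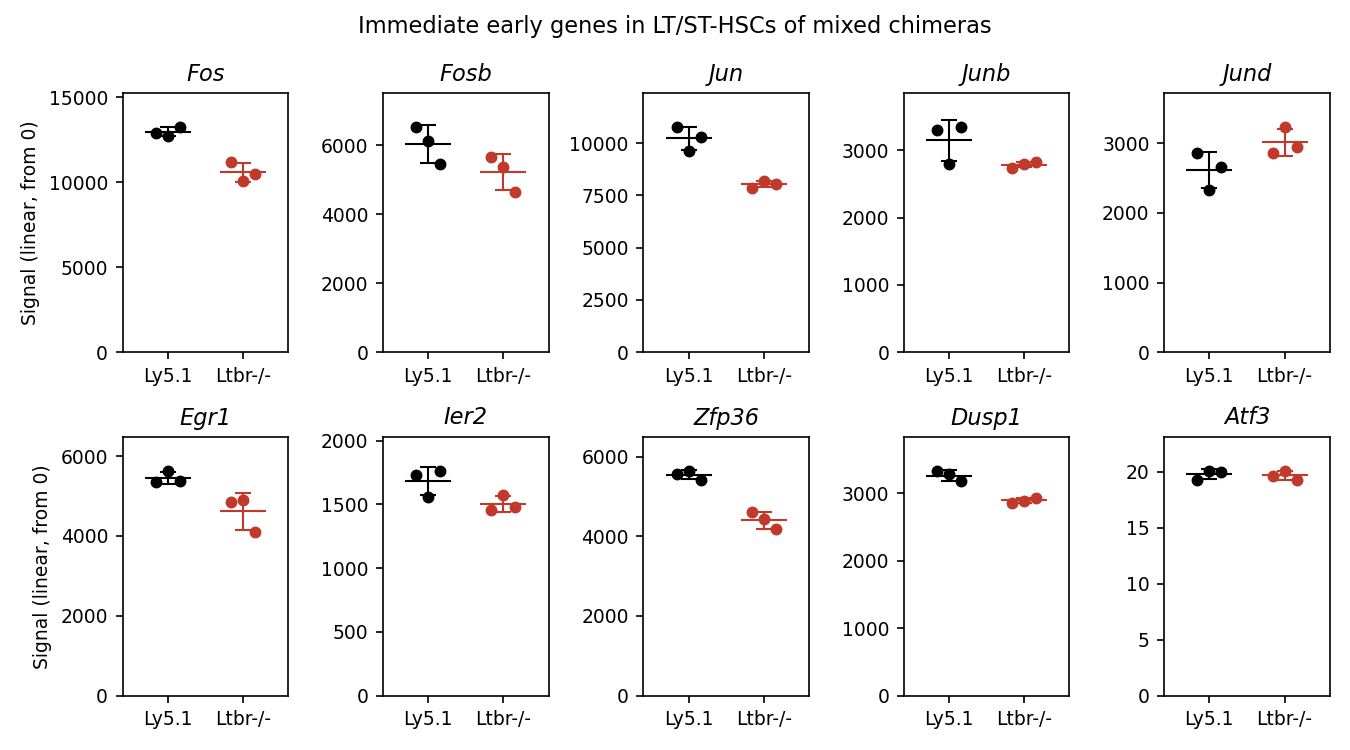
Signal (linear, each axis from 0) of the 10 immediate early genes in the 3 Ly5.1 samples (black) and the 3 *Ltbr*-/- samples (red), replicates 1 to 3 from left to right, with the mean and SD of each group. The groups are apart in *Fos*, *Jun*, *Egr1*, *Zfp36* and *Dusp1*, which are lower in *Ltbr*-/-, and by a narrow margin in *Jund*, which is higher.

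*Fos* encodes the AP-1 subunit that pairs with Jun proteins and has long served as the standard readout of acute stimulation (chr12:85473890-85477273 in GRCm38, plus strand). Its signals were 11176, 10054 and 10520 in the *Ltbr*-/- samples and 12935, 12721 and 13247 in the Ly5.1 samples. All 3 *Ltbr*-/- values lay below the lowest Ly5.1 value, and the means were 10583 ± 563 (SD, n = 3) and 12968 ± 265 (SD, n = 3). The log2 difference was −0.29 (standard error 0.06, 95% interval −0.42 to −0.17, adjusted p = 0.000689 from limma), which is 18.5% lower. *Fosb*, its close relative, had signals of 5652, 5373 and 4654 in *Ltbr*-/- and of 6520, 6124 and 5453 in Ly5.1. Here the groups overlapped, because the lowest Ly5.1 sample was below the highest *Ltbr*-/- sample. The log2 difference of −0.21 (95% interval −0.37 to −0.05) had an adjusted p of 0.0690 from limma.

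The Jun proteins are the partners of Fos in AP-1 and differ in that JunD is made at a steady level in resting cells and restrains growth, while c-Jun is induced. *Jun* (chr4:95049034-95052222), *Junb* (chr8:84976910-84978718) and *Jund* (chr8:70698949-70700616) lie apart in the genome, the latter pair on the same chromosome. *Jun* had signals of 7875, 8167 and 8060 in *Ltbr*-/- and of 10763, 9648 and 10272 in Ly5.1 samples, with no overlap. It had the largest difference of the 10 genes, −0.35 on the log2 scale (standard error 0.07, 95% interval −0.48 to −0.21, adjusted p = 0.000133 from limma), or 21.4% lower. *Junb* had signals of 2741, 2795 and 2825 in *Ltbr*-/- and of 3306, 2794 and 3341 in Ly5.1. The second Ly5.1 sample lay among the *Ltbr*-/- samples, and the difference of −0.17 (95% interval −0.33 to −0.01) had an adjusted p of 0.161 from limma. *Jund* went the other way, with signals of 2858, 3230 and 2948 in *Ltbr*-/- and of 2855, 2332 and 2660 in Ly5.1. The lowest *Ltbr*-/- and the highest Ly5.1 sample were next to each other, and the difference of 0.21 (95% interval 0.04 to 0.37) had an adjusted p of 0.0916 from limma.

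The balance within the Jun family could be read inside each sample, where a factor common to all genes of the sample cancels out. These ratios were chosen after the values were seen, *Jun* and *Jund* because their differences lay at opposite ends, so that they describe the samples only. Exact permutation p-values were 0.1 for *Jun* to *Jund*, *Junb* to *Jund* and *Jun* to *Junb*. They were 0.5 for *Fos* to *Jun* and *Fos* to *Fosb*. Because of this choice they carry no weight as tests. The log2 ratio of the signals of *Jun* to *Jund* was 1.46, 1.34 and 1.45 in *Ltbr*-/- and 1.91, 2.05 and 1.95 in Ly5.1 samples. The means differed by −0.55, with an SD of 0.07 in each group. The log2 ratio of *Junb* to *Jund* was −0.06, −0.21 and −0.06 in *Ltbr*-/- and 0.21, 0.26 and 0.33 in Ly5.1, so that *Junb* had the higher signal of the pair in Ly5.1 and *Jund* in *Ltbr*-/- cells. The log2 ratio of *Jun* to *Junb* did not overlap either, with means of 1.53 in *Ltbr*-/- and 1.70 in Ly5.1. In contrast, the ratio of *Fos* to *Jun* overlapped between the groups, lying between 0.30 and 0.51 in *Ltbr*-/- and between 0.27 and 0.40 in Ly5.1. The ratio of *Fos* to *Fosb* overlapped as well.

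*Egr1* encodes a zinc finger factor that is known to hold HSCs in quiescence and in the niche. Its signals were 4841, 4906 and 4091 in *Ltbr*-/- and 5359, 5632 and 5366 in Ly5.1 samples. The groups did not overlap, and the third *Ltbr*-/- sample was the lowest by a wide gap. The log2 difference was −0.25 (standard error 0.08, 95% interval −0.40 to −0.09, adjusted p = 0.0229 from limma), or 15.7% lower. Without *Ltbr*-/- replicate 3 it was −0.16 with an adjusted p of 0.241 from limma, and without Ly5.1 replicate 2 it was −0.22 with one of 0.0807, so that the result for *Egr1* rests on these samples. *Ier2*, a small nuclear protein gene of the same early wave, had signals of 1460, 1578 and 1478 in *Ltbr*-/- and of 1731, 1562 and 1765 in Ly5.1. The groups overlapped and the difference of −0.16 (95% interval −0.33 to 0.01) had an adjusted p of 0.211 from limma. *Atf3*, a stress-induced repressor of the ATF family, was weakly expressed, at 19.6, 20.1 and 19.3 in *Ltbr*-/- and 19.3, 20.1 and 20.0 in Ly5.1. At this level the shrinkage narrows any difference, and the value of −0.01 (95% interval −0.09 to 0.07) cannot be taken as a measure of equal expression.

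*Zfp36* and *Dusp1* encode the brakes of the response. Tristetraprolin, the product of *Zfp36*, leads AU-rich mRNAs to decay, and DUSP1 removes phosphates from p38, JNK and ERK. *Zfp36* lies at chr7:28376784-28380253, on the chromosome of *Fosb* (chr7:19302696-19310051), and *Dusp1* at chr17:26505590-26508519, all on the minus strand. *Zfp36* had signals of 4611, 4427 and 4183 in *Ltbr*-/- and of 5561, 5645 and 5418 in Ly5.1 samples. All *Ltbr*-/- samples were well below the Ly5.1 samples, with a log2 difference of −0.33 (standard error 0.07, 95% interval −0.48 to −0.19, adjusted p = 0.000825 from limma), or 20.5% lower. *Dusp1* had signals of 2862, 2882 and 2936 in *Ltbr*-/- and of 3334, 3279 and 3175 in Ly5.1. The samples within each group lay close together, with a within-group log2 SD of 0.03 (percentile 2.33 among the tested genes), and the groups did not overlap. The difference of −0.17 (95% interval −0.33 to −0.02) had an adjusted p of 0.126 in limma, which draws the variance of each gene towards that of genes of the same level.

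**Figure D2:**
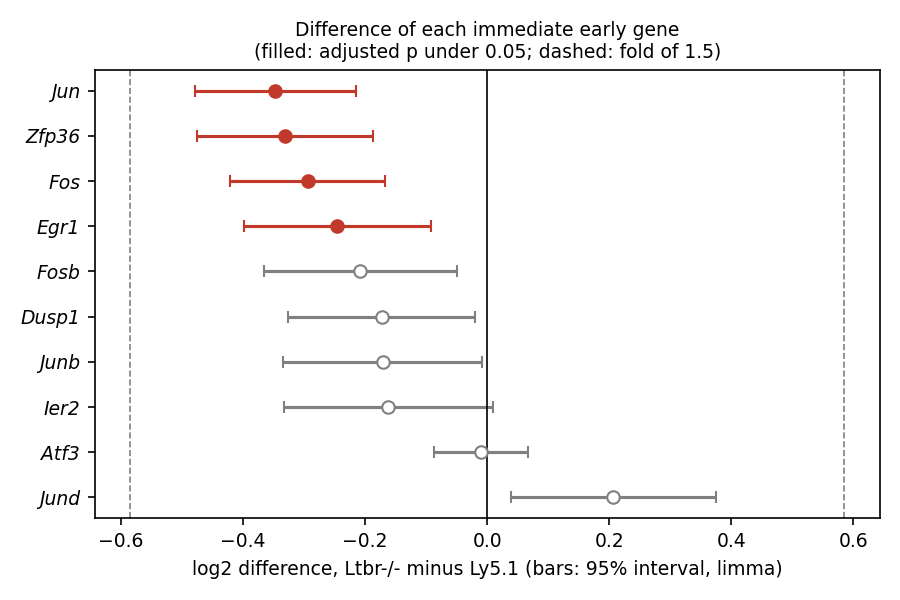
log2 difference (*Ltbr*-/- minus Ly5.1) of each gene with its 95% interval from limma, ordered by size. Filled points have an adjusted p under 0.05, dashed lines mark a fold of 1.5, and all intervals end inside these lines.

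The exact two-sided permutation test of 3 against 3 values gave p = 0.1 for *Fos*, *Jun*, *Jund*, *Egr1*, *Zfp36* and *Dusp1*, which is the smallest p of this design, and 0.2 to 0.9 for the others. The choice of scaling changed the size of several differences. After quantile normalization the log2 difference was −0.65 for *Fos* and −0.62 for *Jun*, past a fold of 1.5, and −0.41 for *Fosb* and −0.39 for *Egr1*. With a separate linear model for each gene, 3 of the 10 genes had an adjusted p under 0.05, namely *Jun*, *Zfp36* and *Dusp1*, and *Fos* had 0.0622. When ribosomal protein genes were set equal between samples, *Jund* turned to −0.67, but the median tested gene then lay at −0.89, so that *Jund* was still above it.

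**Figure D3:**
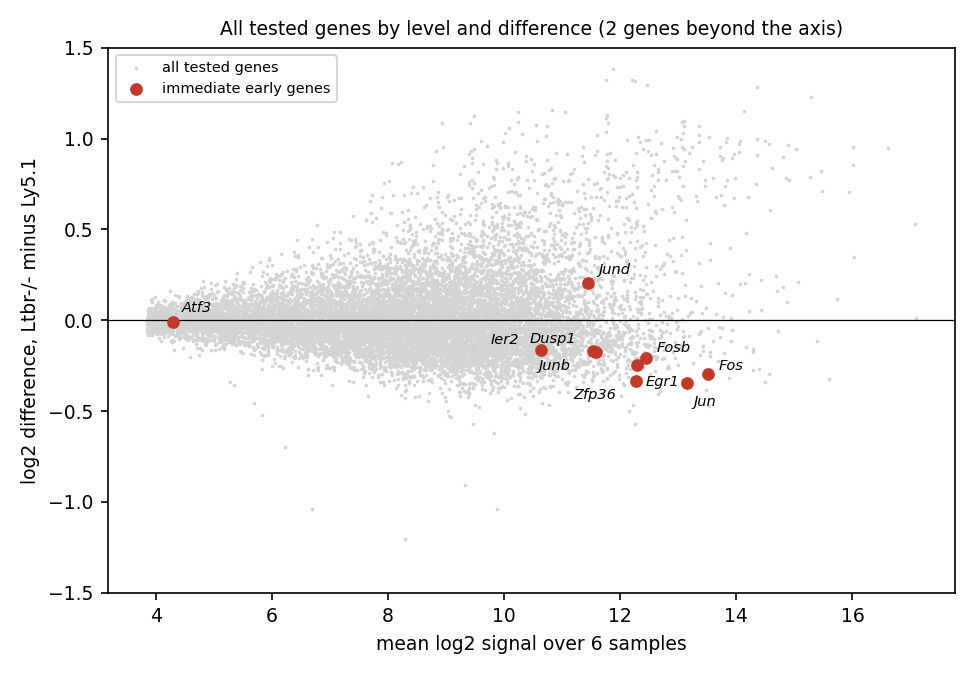
Mean log2 signal over the 6 samples (x axis) and log2 difference between *Ltbr*-/- and Ly5.1 (y axis) of the 13108 tested genes in grey, with the 10 immediate early genes in red. *Atf3* lies at the weak end of the scale, and the other 9 lie among the strongly expressed genes, 8 of them below 0.

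Levels were compared between genes as signal per kb of the longest protein-coding transcript, since a regularized log value is not scaled by length. In Ly5.1 cells *Fos* was the most abundant with 6152 ± 126 per kb (SD, n = 3), followed by *Jun* with 3207 ± 175 and *Zfp36* with 1986 ± 41.1. *Junb* (1740 ± 169), *Dusp1* (1640 ± 40.5), *Fosb* (1595 ± 143) and *Jund* (1568 ± 158) came next and did not differ among each other beyond their SDs. *Egr1* (1216 ± 34.7), *Ier2* (1108 ± 71.3) and *Atf3* (9.97 ± 0.22) closed the order. In *Ltbr*-/- cells *Fos* (5021 ± 267) and *Jun* (2519 ± 46.4) again led the order, followed by *Jund* with 1806 ± 116 per kb. *Zfp36* (1580 ± 77.0) and *Junb* (1540 ± 23.6) followed within their SDs of each other, and so did *Dusp1* (1454 ± 19.2) and *Fosb* (1382 ± 136), and *Egr1* (1029 ± 101) and *Ier2* (989 ± 41.6). The levels per kb of *Jund* and *Zfp36*, and their places in the order, rest on the GENCODE transcript, whose start differs from that of RefSeq. *Jun* and *Jund* have annotated antisense genes on the opposite strand, and whether reads were counted by strand is not given in the sources used here.

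*Jun* varied most over the 6 samples, with a log2 SD of 0.20, and its profile was used to look for genes that move alike. The closest tested genes by the root mean square difference of log2 values, each centred on its mean over the 6 samples, were *Ighj4* (0.03), *Igkv4-59* (0.03) and *Nadk* (0.04). The first pair are immunoglobulin gene segments with signals between 34.7 and 50.3, and *Nadk*, which encodes NAD kinase, had signals of 872, 882 and 900 in *Ltbr*-/- and of 1123, 1083 and 1100 in Ly5.1 samples. With 6 samples many genes share such a profile, so that this is a description only.

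Genes around the 10 members were taken from lists by role. Of 19 tested genes of the other AP-1 and CREB/ATF factors, 0 were lower and 3 higher with an adjusted p under 0.05 (10.6% of all tested genes were higher by this rule), and the median log2 difference was 0.02. *Atf5*, a factor of the amino acid and unfolded protein response, was the only one called with both thresholds. Its signals were 622, 646 and 722 in *Ltbr*-/- and 383, 393 and 460 in Ly5.1 samples, with no overlap and a log2 difference of 0.69 (standard error 0.10, adjusted p = 8.19e-07 from limma). The call of *Atf5* was lost with a linear model per gene (adjusted p = 0.0564). *Fosl2*, a Fos relative that is made later and lasts longer, had 210, 206 and 190 in *Ltbr*-/- against 149, 149 and 158 in Ly5.1, a difference of 0.41 (adjusted p = 0.000862 from limma). Within the Fos family the direction thus differed, since *Fos* was lower and *Fosl2* higher. *Atf4*, the master factor of the integrated stress response, was higher by 0.29 (adjusted p = 0.00334 from limma).

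Among 37 tested genes of the other primary response genes, 5 were lower and 5 higher with an adjusted p under 0.05. By this rule 4.18% of all tested genes were lower and 10.6% higher. The median log2 difference of the list was −0.03. *Id1*, an inhibitor of basic helix-loop-helix factors, was the only one called with both thresholds. It had signals of 401, 441 and 364 in *Ltbr*-/- and of 221, 288 and 286 in Ly5.1, a log2 difference of 0.61 (standard error 0.10, adjusted p = 2.75e-05 from limma). The call of *Id1* was lost without *Ltbr*-/- replicate 2 (0.54) and without Ly5.1 replicate 1 (0.48), where the fold fell short of 1.5, and with a linear model per gene (adjusted p = 0.129). *Id1* did not pass the upper 25% filter on mean level. When ribosomal protein genes were set equal, *Atf5* (−0.19) and *Id1* (−0.27) turned below 0 but stayed above the median tested gene. The other higher genes were *Cebpb* (0.50), *Pim1* (0.47), *Cebpd* (0.31) and *Myc* (0.22). The lower genes were *Nfkbiz* (−0.42), *Tnfaip3* (−0.39), *Irf1* (−0.34), *Rhob* (−0.32) and *Plk2* (−0.29). *Nr4a1*, which is commonly induced together with *Fos* and *Egr1*, had 1025 in *Ltbr*-/- and 1120 in Ly5.1 as group means, overlapping samples and a difference of −0.13 (adjusted p = 0.370 from limma). *Egr2*, *Egr3* and *Egr4* had signals of at most 6.20 in every sample and were not tested.

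The regulators up- and downstream of these genes showed no difference past an adjusted p of 0.05 in limma. That was so for 0 of 25 tested genes of SRF, its TCF partners and the upstream kinases, of which 10 had an unadjusted p under 0.05, 8 of them lower, against the 27.1% and 11.4% of all tested genes. Their median log2 difference was −0.13, and the largest differences were those of the MAP kinase kinase *Map2k1* (0.29, adjusted p = 0.0514 from limma) and the kinase *Rps6ka5* (−0.25, adjusted p = 0.0805 from limma). Of 12 tested MAP kinase phosphatases and ERK feedback genes, 0 passed and 3 had an unadjusted p under 0.05, with *Dusp2* at −0.22 and *Dusp4* at 0.21. Of 19 tested genes of the ZFP36 family and mRNA decay, 0 passed and 2 had an unadjusted p under 0.05, with the deadenylase genes *Cnot6l* at −0.26 and *Cnot6* at −0.18. With a linear model per gene, 0 genes of these 3 lists were called as well.

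Heat shock genes were included since they are induced by handling of cells. Of these, 4 of 13 had an adjusted p under 0.05, against 14.8% of all tested genes. The 4 were 2 lower (4.18% of all tested genes) and 2 higher (10.6%), none with a fold of 1.5. *Hspa1a* and *Hspa1b*, the inducible HSP70 genes, were lower in *Ltbr*-/- by limma. *Hspa1a* had signals of 11258, 10392 and 10037 in *Ltbr*-/- and of 13354, 12465 and 13424 in Ly5.1, a difference of −0.31 (adjusted p = 0.000455 from limma). *Hspa1b* had a difference of −0.32 (adjusted p = 0.000149 from limma), and since both genes are near-identical copies, reads may have been split between them. *Hspe1*, a mitochondrial chaperonin subunit, was higher by 0.51 (adjusted p = 3.13e-05 from limma) and *Hspa8*, the constitutive HSC70, by 0.16 (adjusted p = 0.0347 from limma).

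**Figure D4:**
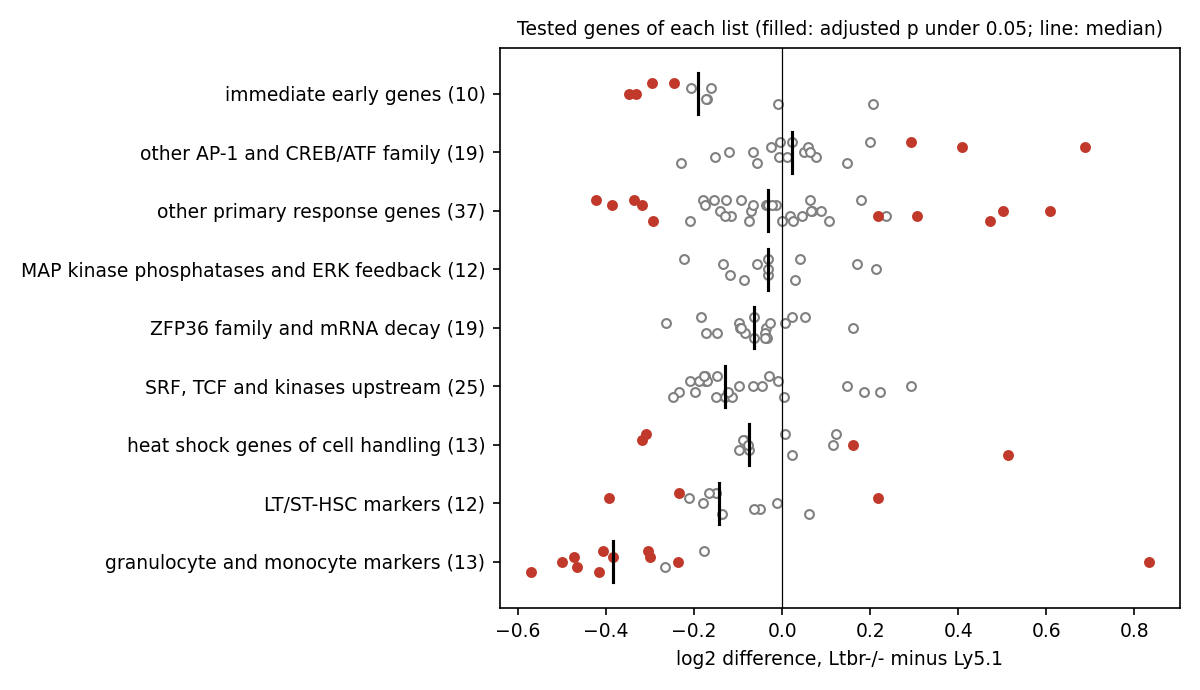
log2 difference (*Ltbr*-/- minus Ly5.1) of the tested genes of each list, with their number in brackets; filled points have an adjusted p under 0.05 in limma and the line is the median. The immediate early genes have a median of −0.19, and the granulocyte and monocyte markers one of −0.39.

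Most granulocyte and monocyte markers moved in the same direction as most of the immediate early genes. Over all tested genes 4.18% were lower and 10.6% higher with an adjusted p under 0.05. With both thresholds 0.061% were called lower and 2.72% higher. These shares stand beside each count of markers below. Of 13 tested granulocyte and monocyte markers, 10 were lower in *Ltbr*-/- with an adjusted p under 0.05 and 1, *Emr1*, was higher by 0.83 (adjusted p = 5.75e-09 from limma). Their median log2 difference was −0.39, with the granule gene *Camp* at −0.57 and the alarmin gene *S100a9* at −0.47. The summed signal of this list was 49681 to 50095 in the *Ltbr*-/- samples and 64086 to 68586 in the Ly5.1 samples, and none of its genes was at or near 0. The part of these markers in the differences of *Fos*, *Jun*, *Egr1* and *Zfp36* was not tested. Of 3 further markers, listed for multipotent progenitors, *Flt3* (−0.28) and *Cd34* (−0.31) were lower, and *Cd48* had a difference of 0.01. Of these only CD48 was used in the sort, and CD34 is also carried by the ST-HSCs inside it. Of the 12 LT/ST-HSC markers, *Ly6a* (−0.39) and *Meis1* (−0.23) were lower and *Gata2* (0.22) higher, with a summed signal of 18333 to 19011 in *Ltbr*-/- and 19494 to 20107 in Ly5.1. Of these markers 10 lay below 0, against 53.6% of all tested genes, and their median log2 difference was −0.14. In the B and plasma cell, the mast cell and basophil, and the erythroid lists, single markers had larger differences than any immediate early gene. Of 5 tested B and plasma cell markers, *Ighm* (−1.04) and *Igkc* (−1.21) were called lower and *Cd79a* (0.62) higher, and the list summed to 1457 to 1586 in *Ltbr*-/- and 2316 to 2478 in Ly5.1 samples. Of 7 tested mast cell and basophil markers, 1 was lower and 2 higher, with *Cma1*, a mast cell protease gene, called at 1.32, and the sums were 7802 to 8360 in *Ltbr*-/- and 4335 to 4966 in Ly5.1. Of 6 erythroid markers, *Hba-a1* was called higher (0.99), with sums of 4001 to 4266 against 2999 to 3235. Of 5 tested megakaryocyte and platelet markers, 1 was lower (*Pf4*, −0.33) and 1 higher (*Itga2b*, 0.31), with sums of 14130 to 14922 against 11965 to 13306. *Itga2b* made up most of these sums, with means of 11640 in *Ltbr*-/- and 9380 in Ly5.1. Of the 5 markers 3 lay below 0, and the median log2 difference was −0.02. The sums did not overlap between the groups in any of these 4 lists, and the part of these markers in the differences of the immediate early genes was not tested either. The T and NK cell markers and the stromal and endothelial markers had 0 genes past the threshold and 0 with an unadjusted p under 0.05.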

How the data were processed

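Total RNA of the sorted cells was converted to stranded mRNA libraries and sequenced in single reads of 76 bases. The authors aligned reads in SeqMan NGen v.16 and used ArrayStar v.16 for quantification. The submitters' processing notes name DESeq2, without a version, and the builds GRCm38 and mm10. The annotation is not given in the sources used here. The deposited signal is never negative, equals 1 in the same 9392 of 26595 rows of all samples, and was read as the power of 2 of the regularized log named in the methods, so that its log2 was used without a pseudocount. For a repeated symbol the row with the highest mean was kept. The upper 50% of names by mean entered limma 3.58.1 in R 4.3.3 (lmFit, then eBayes with its trend option), after a test on simulated data. The exact permutation tests used SciPy 1.17.1. Labels name replicates but no batches; whether replicates were independent animals is known only as pools of chimeras, so that p-values measure the spread between these samples. No pair of samples was identical. Members and lists were chosen with earlier results of these data known. Named were all members, *Ltbr* and the 3 genes most like *Jun*. Of each list by role the called genes were named or, where none was called, the 2 with the largest difference. Other names, among them those of cell type markers, were added after their values were seen. Alternatives were leaving out each sample, the replicate number as a block, filters, a pseudocount of 1, scalings, variance models, repeated symbols and thresholds. Depth is unknown, so that no counting interval could be given.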

Additional observations from a re-analysis of the deposited data

How the results depend on the processing

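*Ltbr* stayed between −4.53 and −4.42 under all alternatives except centring on ribosomal protein genes (−5.35). The upper 25% filter gave no value for *Ltbr* and *Atf3*. Of the 4 lower genes, *Jun* and *Zfp36* kept direction and threshold under all alternatives run; *Fos* lost the threshold with a linear model per gene (−0.29, adjusted p = 0.0622), and *Egr1* with it and without a trend (−0.25, adjusted p = 0.229 and 0.0688, in this order). Quantile normalization added *Fosb* (−0.41), *Junb* (−0.26) and *Dusp1* (−0.26), the upper 25% filter *Fosb* (−0.21) and *Jund* (0.21), and the linear model *Dusp1* (−0.17). Centring on ribosomal protein genes gave −1.08 for *Fosb*, −1.05 for *Junb*, −1.04 for *Ier2*, −1.05 for *Dusp1*, −0.88 for *Atf3* and −0.67 for *Jund*, against −0.89 for the median tested gene; this scaling by its construction shifts all genes of a sample alike.

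Leaving out 1 sample gave −0.28 to −0.13 for *Fosb*, −0.25 to −0.13 for *Junb*, 0.13 to 0.27 for *Jund*, −0.29 to −0.16 for *Egr1* and −0.0285 to 0.0037 for *Atf3*, which turned without *Ltbr*-/- replicate 3 (0.0037) or Ly5.1 replicate 2 (0.0010). By limma's adjusted p, *Fosb* passed without *Ltbr*-/- replicate 1 (0.0362) or Ly5.1 replicate 3 (0.00823), *Junb* without Ly5.1 replicate 2 (0.0376) and *Jund* without Ly5.1 replicate 1 (0.0448). *Egr1* lost the threshold without *Ltbr*-/- replicate 3 (adjusted p = 0.241 from limma) or Ly5.1 replicate 2 (0.0807). From 3 to 5 of the 10 genes then had an adjusted p under 0.05 and 0 were called. The count with an adjusted p under 0.05 was 7 after quantile normalization and 10 with centring on ribosomal protein genes; the called count was 2 and 10, and 4 without a fold threshold.

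The replicate block left the log2 values as they were and gave 5 genes with an adjusted p under 0.05, *Fosb* at −0.21 (adjusted p = 0.0177 from limma) being added, and 364 calls over all genes. Deviations of samples with the same number correlated at 0.0314, −0.0052 and 0.0899, and no source used here ties samples of the same number to the same chimeras, so that the numbers were not taken as pairs. Not every sample correlated best with its own.

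Over all tested genes 364 were called, 342 to 407 without 1 sample, 1936 without a fold threshold, 42 with a fold of at least 2 and 12010 with centring on ribosomal protein genes. That centring also called 16 of the other AP-1 and CREB/ATF factors, 33 other primary response genes, 12 phosphatases and feedback genes, 19 mRNA decay genes, 24 SRF and kinase genes and 12 heat shock genes. Without a fold threshold the counts were 3, 10 and 4 for the AP-1, primary response and heat shock lists; quantile normalization called 2 heat shock genes. The 1 call in the AP-1 list and the 1 in the primary response list became 0 with the linear model and with a fold of at least 2, the latter also with the upper 25% filter, and it was 0 to 1 without 1 sample. Causes of these changes were not tested.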
